A study of Mus musculus with 4 samples.

Results

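Cytosolic heat shock chaperones were followed in muscle satellite cells, stem cells that express Pax7, through 10 genes: Hspa1a, Hspa1b, Hspa8, Hspb1, Dnaja1, Dnajb1, Hsph1, Hsp90aa1, Hsp90ab1 and the transcription factor Hsf1. The genes were chosen by symbol, and all 10 were found among the 55487 genes of the deposited tables and entered the test, in which 38143 genes were compared. RNA-seq was made from freshly isolated cells in 4 libraries, 2 labelled Control and 2 labelled Rbfox2 cKO. In the cKO animals a floxed Rbfox2 gene was recombined by a tamoxifen-inducible Cre recombinase expressed from Pax7 (Pax7CreERT2), and a Rosa26 EYFP reporter marked the recombined cells. Whether the Control animals carried the Cre or the reporter or received tamoxifen, and how old the animals were, is not given in the sources used here. Nothing in the labels says that a group's 2 libraries were from different animals, and every p-value here therefore reflects only library-to-library spread, which may be technical.

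Heat shock proteins are chaperones that bind unfolded proteins, prevent their aggregation and help them to fold. HSP70 proteins bind and release clients in a cycle driven by ATP, J-domain proteins such as Dnajb1 deliver clients and trigger ATP hydrolysis, nucleotide exchange factors such as Hsph1 reset the cycle, and HSP90 acts later on signalling proteins and receptors. The transcription factor Hsf1 trimerises under proteotoxic stress and binds heat shock elements, inverted repeats of the unit GAA, in the promoters of the inducible genes. Enzymatic isolation of satellite cells is itself known to induce stress genes.

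Depth ran from 68884091 estimated counts (cKO 1) to 101997422 (cKO 2). Over all genes, median TPM reached 0.771 in cKO 1 against 0.312 to 0.437 elsewhere. Rbfox2, the targeted gene, measured 131.3 and 55.98 CPM (Control 1, 2) against 40.04 and 15.17 CPM (cKO 1, 2). CPM are counts scaled to TMM-normalised library sizes. The TMM factors were 0.935 and 0.965 (Control 1, 2) against 1.27 and 0.876 (cKO 1, 2). Rbfox2 fell by 1.76 on the log2 scale (SE 0.35, edgeR adjusted p = 0.000252), a call held in 5 alternatives and lost in others, among them limma on TPM, library totals only and each fit with 1 library left out. The 10 satellite cell markers summed to 24806 and 23453 CPM (Control 1, 2) versus 17608 and 26967 CPM (cKO 1, 2). Summed levels were 75 to 96 CPM for 10 muscle fibre markers and, for 8 macrophage markers, 24.9 and 29.0 CPM (Control 1, 2) versus 36.3 and 37.6 CPM (cKO 1, 2). Fibro-adipogenic markers summed higher, to 1065 and 1291 CPM (Control 1, 2) versus 874 and 1014 CPM (cKO 1, 2). Endothelial markers summed to 217 to 269 CPM, and mural and glial markers to 226 to 283 CPM.

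The upstream sequences of the 4 genes with higher CPM in both cKO libraries than in both Control libraries are shown because they carry, or lack, the heat shock element in its strict spelling. RefSeq promoter windows on GRCm38.p6 were matched for 6 of the 10 genes, and the 250 bases before the first listed start site are printed 5′ to 3′, with each match to GAANNTTC or TTCNNGAA in capitals.
Hspa1a (chr17:34972157-34972406, minus strand): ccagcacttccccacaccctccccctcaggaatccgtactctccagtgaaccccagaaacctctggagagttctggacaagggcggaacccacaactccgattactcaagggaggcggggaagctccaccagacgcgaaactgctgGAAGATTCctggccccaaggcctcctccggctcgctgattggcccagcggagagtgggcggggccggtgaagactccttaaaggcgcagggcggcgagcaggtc
Hspa1b (chr17:34959239-34959488, minus strand): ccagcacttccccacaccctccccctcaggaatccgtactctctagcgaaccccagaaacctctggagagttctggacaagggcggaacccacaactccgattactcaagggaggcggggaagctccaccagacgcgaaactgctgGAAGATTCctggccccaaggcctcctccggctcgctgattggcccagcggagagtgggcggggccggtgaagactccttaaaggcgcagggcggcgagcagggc
Hspb1 (chr5:135887669-135887918, plus strand): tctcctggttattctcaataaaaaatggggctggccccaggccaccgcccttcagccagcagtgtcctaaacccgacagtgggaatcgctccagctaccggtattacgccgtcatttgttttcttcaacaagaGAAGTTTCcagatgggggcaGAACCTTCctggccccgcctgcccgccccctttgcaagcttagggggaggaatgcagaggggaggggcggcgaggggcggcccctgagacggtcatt
Dnajb1 (chr8:83607925-83608174, plus strand): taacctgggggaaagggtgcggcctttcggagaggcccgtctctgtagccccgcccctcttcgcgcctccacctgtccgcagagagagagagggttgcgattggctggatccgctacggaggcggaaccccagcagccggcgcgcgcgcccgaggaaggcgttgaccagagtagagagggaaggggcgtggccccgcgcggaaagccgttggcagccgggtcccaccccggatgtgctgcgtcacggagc
The Hspa1a and Hspa1b sequences differed at 3 of 250 bases, an identity of 98.8%. Counted from 1 at the 5′ end of the printed sequence, with the Hspa1a base first, the substitutions were C44T, T47C and T249G. Both hold the match GAAGATTC, at -104 to -97 relative to the start site. Hspb1 holds 2 matches, GAAGTTTC and GAACCTTC. The Dnajb1 windows hold neither spelling, which says only that these letters are not there. Among the other matched genes, Dnaja1 has GAAAATTC at -124 to -117 relative to its first listed start. Hsph1 has TTCTCGAA at -33 to -26 relative to its first listed start and, at 37 to 49 after it, the longer run TTCTGGAAAGTTC, in which 2 of the pairs overlap. Both spellings read the same on either strand. At least one of the pairs occurs in 15.1% of all 32851 RefSeq promoter windows of 300 bases, and a run of 3 such alternating units, each 2 bases apart, in 0.603%. A match is a description of the letters and not evidence of binding.

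The chaperones were among the most abundant transcripts of these cells. Levels between genes were compared in TPM, which is corrected for transcript length. Hspa8, the constitutive HSP70 of the cytosol, led in every library, with 3334 and 3803 TPM (Control 1, 2) against 4517 and 3677 TPM (cKO 1, 2), ranks 25 to 36 among all genes. Next came Hsp90ab1 at 2349 ± 93.0 TPM, Hspb1 at 2086 ± 467 TPM and Hsp90aa1 at 2063 ± 299 TPM (mean ± SD over the 4 libraries). The ranges of these 3 overlapped, so their order is not resolved, but all 3 lay below Hspa8 in every library. Hspa1a followed at 673 ± 241 TPM, Hsph1 at 527 ± 81.8 TPM and Dnajb1 at 522 ± 158 TPM, and these 3 also overlapped. Dnaja1 stood at 272 ± 27.3 TPM, Hspa1b at 206 ± 97.3 TPM and Hsf1 at 128 ± 20.9 TPM. Neighbours among these 3 also overlapped: Hspa1b exceeded Dnaja1 in cKO 1 and lay below Hsf1 in Control 1. Hspa1a and Hspa1b spread most across the libraries for their level. The 10 genes held 1.160% and 1.165% of all TPM (Control 1, 2) against 1.43% and 1.31% (cKO 1, 2).

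Against Control, 0 of the 10 genes passed the threshold in edgeR (adjusted p under 0.05 over all genes), where 0.551% of all genes tested were called (0.364% higher and 0.186% lower in cKO). An unadjusted p under 0.05 was reached by 2, Hspa1a and Hspa1b, against 4.83% of all genes, and DESeq2 called 0, against 0.275% of genes (0.163% higher and 0.112% lower in cKO). The unadjusted count moved with the setting, to 5 when 2 libraries had to reach a CPM of 5 (20.9% of the 10011 genes kept) and to 6 with library totals (7.8% of all genes). The SE of these abundant genes moved too: for Hspa1a it was 0.39 in the fit on 38143 genes, 0.13 with the CPM filter and 0.12 with library totals, so each SE and p printed here holds for its own filter and scaling. The median log2 fold change was 0.22 over the 10 genes and 0.06 over all genes tested. Over the 5780 genes whose mean CPM was at least 20, as it was for each of the 10, it was -0.13. Leaving out cKO 2 turned the median of the 10 to -0.12, against -0.49 over those abundant genes. Leaving out cKO 1 gave 0.46, against 0.11. In the fit on 4 libraries 7 of the 10 were positive (6 with DESeq2 size factors, 8 with library totals), against 55% of all genes. Of the abundant genes 64.9% were negative. In 4 of the 10 (Hspa1a, Hspa1b, Hspb1 and Dnajb1) each cKO library exceeded each Control library in CPM, as in 18% of all genes tested and in 11.5% of the 5780 genes whose mean CPM was at least 20. In 0 of the 10 each cKO library lay below, against 13.3% of all genes and 26.1% of those with a mean CPM of at least 20.

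**Figure D1:**
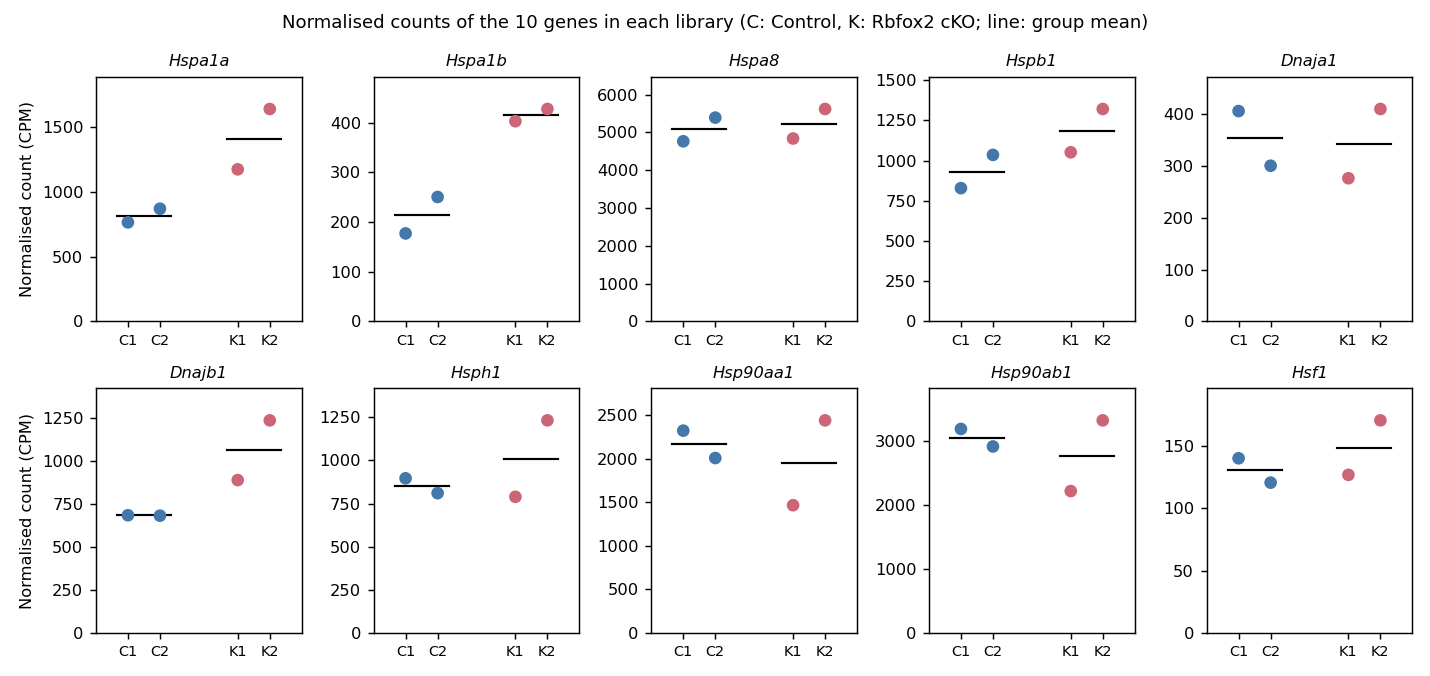
Normalised counts (CPM, linear axis from 0) of the 10 genes in Control 1 and 2 (C1, C2) and cKO 1 and 2 (K1, K2), with each library as a point and the group mean as a line. Hspa1a, Hspa1b, Hspb1 and Dnajb1 have no overlap between the groups, and for the HSP90 genes cKO 1 is lowest and cKO 2 highest.

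The stress-inducible HSP70 genes had the highest fold changes of the 10. Hspa1b (ENSMUSG00000090877.3, GRCm38 chromosome 17, 34956436 to 34959238, minus strand) measured 177.1 and 250.4 CPM (Control 1, 2) against 402.8 and 427.4 CPM (cKO 1, 2). Its groups did not overlap, and the lower cKO library exceeded the higher Control library. The group levels were 213.8 ± 51.8 and 415.1 ± 17.4 CPM (SD, n = 2 each), with log2 fold change 0.96 (SE 0.37, unadjusted p = 0.00902, adjusted p = 0.504 in edgeR). Its neighbour Hspa1a (ENSMUSG00000091971.3, chromosome 17, 34969190 to 34972156, minus strand) measured 765.2 and 870.5 CPM (Control 1, 2) against 1175 and 1641 CPM (cKO 1, 2). It too had no overlap, and cKO 2 was highest. Its log2 fold change was 0.78 (SE 0.39, unadjusted p = 0.0437, adjusted p = 0.991 in edgeR). In bulk RNA, a changed number of cells of one kind and a changed amount of RNA per cell cannot be told apart. Of 7 erythroid markers 5 were called higher in edgeR, and their summed level was 131.1 and 288.7 CPM (Control 1, 2) against 514.2 and 607.0 CPM (cKO 1, 2). DESeq2 and limma on TPM called 0 of the 7. Of 8 macrophage markers, summed above and higher in both cKO libraries, 0 were called in edgeR, DESeq2 or limma, 3 had an unadjusted p under 0.05 in edgeR and 7 were positive (median 0.53). The part of either marker list in the chaperone levels was not tested.

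The HSP70 pair shares most of its sequence, so the split of reads between the copies is uncertain. Of the 50-mers of Hspa1a 58.8% also lie in Hspa1b, and of those of Hspa1b 62.3% lie in Hspa1a. Hspa1b made up 19.7% and 23.3% of the pair's TPM (Control 1, 2) against 26.6% and 21.6% (cKO 1, 2), ranges that overlap. Summed before the fit, the pair had a log2 fold change of 0.82 (adjusted p = 0.941 in edgeR), from 942.3 and 1121 CPM in Control to 1577 and 2068 CPM in cKO. Gm20481, which shares 16.2% of the Hspa1a 50-mers, had at most 0.0336 CPM in any library. The relative Hspa1l, which shares 7.95% of the Hspa1a 50-mers, stood between 0.819 and 4.20 CPM, and Gm10501, an annotated antisense gene with the same share, between 3.42 and 7.67 CPM.

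The calls for Hspa1a and for Dnajb1 changed with the setting, scaling included, and with cKO 1 left out. The limma fits differ from edgeR in unit, filter and model as well as in scaling. In limma on log2(TPM + 1), where 0.308% of genes were called (0.209% higher, 0.0988% lower), Hspa1a had a log2 fold change of 0.92 (adjusted p = 0.0370) and Dnajb1 one of 0.77 (adjusted p = 0.0396), and Hspa1b one of 1.13 (adjusted p = 0.101). With library totals in place of TMM factors in edgeR, which called 0.739% of genes (0.469% higher, 0.27% lower), the adjusted p was 0.00116 for Hspa1a and 0.00269 for Dnajb1. A pseudocount of 0.1 (0.593% called, 0.36% higher and 0.232% lower) also gave Hspa1a and Dnajb1, and limma with no TPM filter (0.742% called, 0.523% higher and 0.218% lower) gave these, Hspa1b and Hspb1. The scaling by totals moved the median of all genes from 0.06 to 0.25. Relative to the median of all genes, Hspa1a stood at 0.66 with library totals and at 0.79 in limma, and Dnajb1 at 0.52 and 0.64. Without cKO 1, where edgeR called 2.26% of genes (1.53% higher, 0.73% lower), Hspa1a stood at 1.02 (adjusted p = 3.23e-06), Hspa1b at 1.01 (adjusted p = 0.0110), Dnajb1 at 0.87 (adjusted p = 5.93e-05) and Hsph1 at 0.54 (adjusted p = 0.0197). Without cKO 2 the same genes stood at 0.45, 0.84, 0.31 and -0.18, and none of these 4 was called. Fits with 1 cKO library assume that it varies like the Control libraries. Over all alternatives the adjusted p ranged from 3.09e-06 to 1.00 for Hspa1a, from 0.00979 to 1.00 for Hspa1b, from 5.93e-05 to 1.00 for Dnajb1 and from 0.0197 to 1.00 for Hsph1.

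The J-domain proteins Dnajb1 and Dnaja1 bring clients to HSP70. Dnajb1 (ENSMUSG00000005483.10, chromosome 8, 83608193 to 83612653, plus strand) measured 684.1 and 681.6 CPM (Control 1, 2) against 888.8 and 1236 CPM (cKO 1, 2). The Control libraries were nearly equal and both cKO libraries lay above them, with log2 fold change 0.64 (SE 0.38, adjusted p = 1.00 in edgeR). Only 0.412% of its 50-mers lie in other annotated genes. Dnaja1 (chromosome 4) measured 405.5 and 300.2 CPM (Control 1, 2) against 276.1 and 409.5 CPM (cKO 1, 2). Its groups overlapped, with log2 fold change -0.04 (SE 0.37, adjusted p = 1.00 in edgeR), which turned positive, to 0.08, with library totals and, to 0.19, in limma on log2(TPM + 1). Within each library, Dnajb1 TPM were 1.38 and 1.66 times those of Dnaja1 in Control and 2.36 and 2.19 times in cKO. That ratio does not depend on the library scaling, and its exact permutation test gave p = 0.333 (two-sided, n = 2 each), the smallest p that 2 against 2 libraries allow. Dnajb1 already did not overlap between the groups in CPM, so the ratio is not separate support. It also rests on the mean transcript length assigned to Dnaja1, 2451 bases in Control 1 against 2192, 2198 and 2168 bases in Control 2, cKO 1 and cKO 2.

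Hsph1, the HSP110 nucleotide exchange factor of the HSP70 cycle (chromosome 5), measured 896.2 and 810.2 CPM (Control 1, 2) against 788.9 and 1233 CPM (cKO 1, 2). The cKO libraries lay on either side of Control in CPM, and its log2 fold change was 0.24 (SE 0.38, adjusted p = 1.00 in edgeR). In TPM both cKO libraries, at 573.6 and 616.5, lay above Control, at 476.3 and 441.4. No 50-mer of Hsph1 or of Hsf1 lies in another annotated gene. The small heat shock protein Hspb1 (chromosome 5), an ATP-independent holdase that also binds actin filaments, measured 828.2 and 1035 CPM (Control 1, 2) against 1051 and 1320 CPM (cKO 1, 2). Control 2 and cKO 1 were nearly level, and the log2 fold change was 0.35 (SE 0.39, adjusted p = 1.00 in edgeR). It was 0.18 without Control 1 and 0.10 without cKO 2, where the median of all genes was 0.15. Of its 50-mers 50.1% lie in 2 other genes, among them the pseudogene Hsp25-ps1 at 76.5 to 138.3 CPM. With the counts of both added to Hspb1, the log2 fold change was 0.36.

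For constitutive Hspa8 and the HSP90 genes the groups overlapped. Hspa8 (chromosome 9) measured 4763 and 5389 CPM (Control 1, 2) against 4836 and 5617 CPM (cKO 1, 2), with log2 fold change 0.04 (SE 0.41, adjusted p = 1.00 in edgeR), which was -0.02 with DESeq2 size factors. In each group library 2 was the higher in CPM, but in TPM cKO 1, at 4517, exceeded cKO 2, at 3677. Of the Hspa8 50-mers 39.4% lie in other genes, and adding the counts of the 5 that hold at least 10% of them left the log2 fold change at 0.04. Hsp90ab1 (chromosome 17), the constitutive HSP90 gene, measured 3193 and 2918 CPM (Control 1, 2) against 2220 and 3327 CPM (cKO 1, 2) (log2 fold change -0.14, SE 0.40, adjusted p = 1.00 in edgeR). Hsp90aa1 (chromosome 12), its stress-responsive relative, measured 2323 and 2008 CPM (Control 1, 2) against 1466 and 2441 CPM (cKO 1, 2) (log2 fold change -0.15, SE 0.40, adjusted p = 1.00 in edgeR). For both, cKO 1 was the lowest and cKO 2 the highest of the 4 libraries in CPM. In TPM the order differed, with Control 1 highest and Control 2 lowest for both. Hsp90ab1 measured 2464 and 2241 TPM (Control 1, 2) against 2366 and 2323 TPM (cKO 1, 2). Hsp90aa1 measured 2485 and 1848 TPM (Control 1, 2) against 1853 and 2066 TPM (cKO 1, 2). In the TMM-scaled fits, the direction of abundant genes moved with the cKO library left out. Those with a mean CPM of at least 20 had a median log2 fold change of -0.49 without cKO 2 and 0.11 without cKO 1. The direction of both HSP90 genes changed in the same way. Without cKO 2 they stood at -0.53 and -0.63 (adjusted p = 0.0267 and 0.0187 in edgeR, where 5.39% of genes were called, 0.597% higher and 4.79% lower), and without cKO 1 at 0.14 and 0.19 (adjusted p = 0.752 and 0.630).

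Hsf1, the regulator (chromosome 15), measured 140.2 and 120.6 CPM (Control 1, 2) against 126.9 and 170.6 CPM (cKO 1, 2). The groups overlapped, with log2 fold change 0.19 (SE 0.35, adjusted p = 1.00 in edgeR). Since Hsf1 protein is known to be switched on after translation, its RNA is not a readout of its activity.

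Ratios within a library remove the scaling between libraries. The summed TPM of Hspa1a and Hspa1b were 16.2% and 17.1% of those of Hspa8 (Control 1, 2) against 27.1% and 29.9% (cKO 1, 2). The ratio was 1.71 times as high in cKO, and cKO 1 lay close to cKO 2. Dnajb1 made 11.5% and 10.2% of Hspa8 (Control 1, 2) against 14.9% and 17.5% (cKO 1, 2). Hspb1 made 45.8% and 50.9% in Control against 58.1% and 61.5% in cKO. None of these 3 ratios overlapped between the groups, a separation with cKO higher that TPM relative to Hspa8 showed in 15.8% of all genes tested and in 12.5% of those with a mean CPM of at least 20 (cKO lower in 15.3% and 36.4%). The numerators are the 4 genes already seen not to overlap in CPM, so the ratios are not separate support. Each had the smallest p the design allows (p = 0.333, exact permutation test, two-sided, n = 2 each). Hsph1 overlapped, at 14.3% and 11.6% in Control against 12.7% and 16.8% in cKO, as did Hsf1, at 3.60% and 2.78% in Control against 3.44% and 3.53% in cKO. Hsp90ab1 TPM were 0.992 and 1.21 times those of Hsp90aa1 in Control and 1.28 and 1.12 times in cKO, which also overlapped. A ratio shows unequal change of its 2 parts and does not say which one moved.

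**Figure D2:**
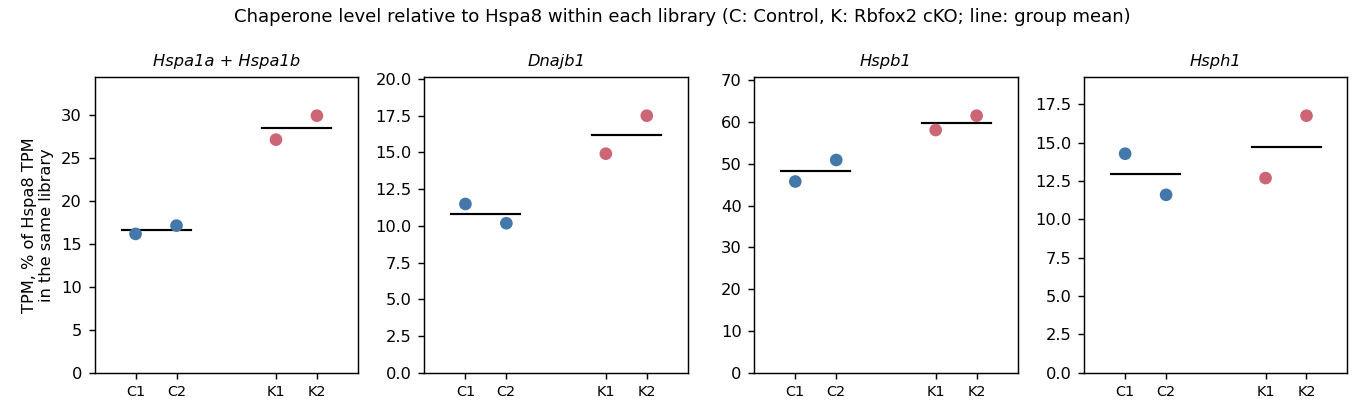
TPM of Hspa1a plus Hspa1b, Dnajb1, Hspb1 and Hsph1 as a percentage of Hspa8 TPM in the same library (linear axes from 0), with each library as a point (C1, C2 Control; K1, K2 cKO) and the group mean as a line. The first 3 are higher in both cKO libraries (27.1% and 29.9% against 16.2% and 17.1% for the HSP70 pair), and Hsph1 overlaps.

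For 2 of the 10 genes the mean transcript length stood apart in a single Control library. Because the deposited counts behave as TPM times transcript length, dividing them gives the mean length of the transcripts to which a gene's coverage was assigned. Hspa1a, with 1 annotated transcript of 2967 bases, returned 2965 or 2966 bases in every library. For Hsp90aa1, which has 8 annotated transcripts of 325 to 3281 bases, the mean length was 1568 bases in Control 1 against 1848, 1796 and 1841 bases in Control 2, cKO 1 and cKO 2. For Dnaja1, with 10 annotated transcripts of 379 to 5622 bases, it was 2451 bases in Control 1 against 2192, 2198 and 2168 bases. In both genes cKO lay close to Control 2, and Control 1 stood apart in opposite directions. Of the 50-mers of Hsp90aa1 47.5% lie in other annotated genes, and of those of Dnaja1 20.55%. With the counts of the 2 genes that hold at least 10% of its 50-mers added, Hsp90aa1 had a log2 fold change of -0.145 in edgeR. The mean transcript length of Dnajb1 and of Hspb1 varied by under 1% across the libraries. For Hsf1 it was 1960 and 1939 bases (Control 1, 2) against 1854 and 2047 bases (cKO 1, 2). Dnaja1 was higher in both cKO libraries in TPM (285.0 and 294.5 against 277.5 and 232.9) but not in CPM. In TPM, 7 of the 10 genes lay higher in both cKO libraries, against 23.4% of all genes tested and 29.8% of those with a mean CPM of at least 20, and 0 lay lower in both, against 9.27% and 27.7%. The 3 that overlapped in TPM were Hspa8 and both HSP90 genes.

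**Figure D3:**
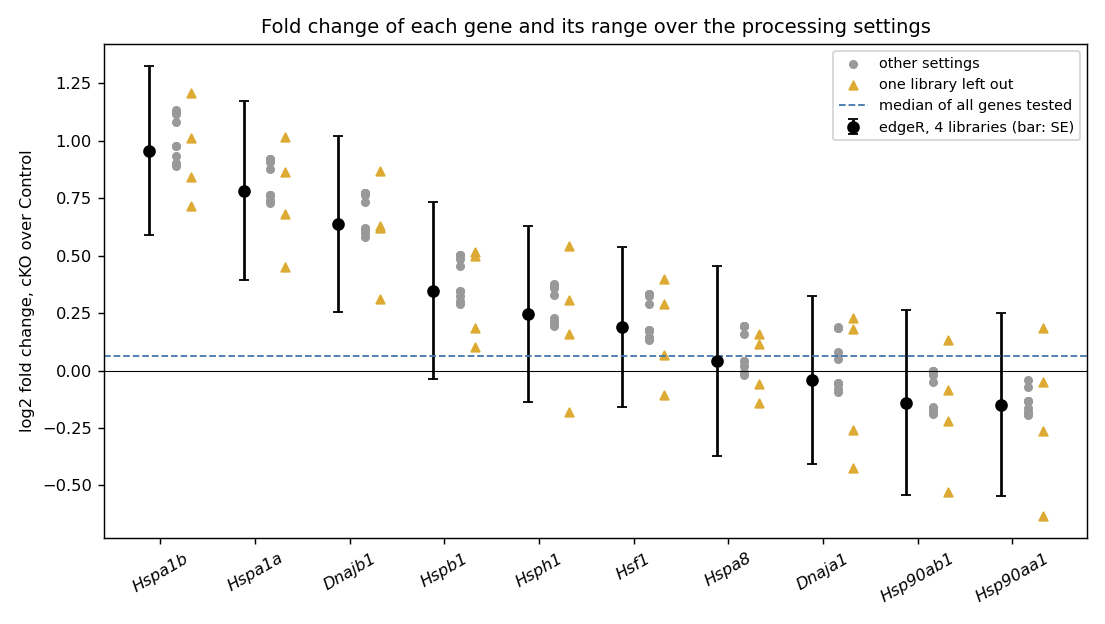
Log2 fold change of each gene in cKO over Control: black points with SE bars are edgeR on the 4 libraries, grey points the other settings, triangles the fits with 1 library left out, and the dashed line the median of all genes tested (0.06). Hspa1b, Hspa1a, Dnajb1 and Hspb1, whose groups already did not overlap in CPM, stay above 0 in each setting plotted. The triangles of the 2 HSP90 genes fall on both sides of 0.

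Other HSP70 and J-domain genes were read from lists beside the 10. Of 8 other HSP70 family genes 0 passed in edgeR, 0 had an unadjusted p under 0.05 and 3 were positive (median -0.18, and 0.05 in limma on TPM). Hspa4, an exchange factor related to Hsph1, measured 301.8 and 301.4 CPM (Control 1, 2) against 204.0 and 314.6 CPM (cKO 1, 2). Hspa13 measured 170.0 and 174.1 CPM (Control 1, 2) against 77.5 and 138.7 CPM (cKO 1, 2) (log2 fold change -0.67, adjusted p = 1.00 in edgeR). Of 12 other J-domain genes 0 passed, 0 had an unadjusted p under 0.05 and the median was -0.10, which turned to 0.09 with library totals. Their most abundant member Dnaja2 measured 546.3 and 498.6 CPM (Control 1, 2) against 295.7 and 482.6 CPM (cKO 1, 2), and Dnajb6, which suppresses aggregation, had a log2 fold change of -0.37. In both lists cKO 1 held the lowest summed level. DESeq2 and limma on TPM called 0 genes in each of these lists and in those that follow.

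Co-chaperones steer clients between HSP70 and HSP90. Of 9 HSP70 co-chaperones 0 passed in edgeR, 1 had an unadjusted p under 0.05 (Bag1, named after its values were seen) and the median was -0.00, or 0.14 with library totals. Bag3, which links HSP70 to small heat shock proteins in autophagy, measured 577.2 and 692.6 CPM (Control 1, 2) against 718.8 and 827.8 CPM (cKO 1, 2) (log2 fold change 0.28, SE 0.38). Its groups did not overlap, with a narrow gap. St13, which stabilises the HSP70 complex with ADP, had a log2 fold change of -0.29. Of 17 HSP90 co-chaperones 0 passed in edgeR, 1 had an unadjusted p under 0.05 (Fkbp5, a glucocorticoid-responsive immunophilin, named after its values were seen, 34.6 and 34.5 CPM in the Control pair, 48.3 and 66.5 CPM in the cKO pair) and the median was -0.13, or 0.06 in limma on TPM. The HSP90 co-chaperone p23, Ptges3, had a log2 fold change of -0.36, and Stip1, which hands clients from HSP70 to HSP90, one of 0.19. Of 8 other small heat shock genes 0 passed and 0 had an unadjusted p under 0.05 (median 0.12). Cryab, the muscle-enriched alpha B crystallin, measured 258.4 and 340.8 CPM (Control 1, 2) against 182.6 and 322.0 CPM (cKO 1, 2). Hspb8, the partner of Bag3, had a log2 fold change of 0.18. Of 5 other heat shock factor genes, with the inhibitor Hsbp1 counted among them, 0 passed in edgeR and 1 had an unadjusted p under 0.05 (Hsf4, at most 2.00 CPM in any library, named after its values were seen). Hsf2 had a log2 fold change of -0.25 and Hsbp1 one of -0.40.

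The chaperonin and prefoldin genes, whose products fold actin and tubulin, all had negative values in edgeR, with TMM and with DESeq2 size factors, and 13 of 15 did with library totals. Of 15 genes 0 passed in edgeR, 1 had an unadjusted p under 0.05 (Pfdn4, named after its values were seen, log2 fold change -0.90) and 15 were negative, with a median of -0.38. For comparison, 45.0% of all genes tested and 64.9% of those with a mean CPM of at least 20 were negative. Cct5 measured 783.9 and 767.7 CPM (Control 1, 2) against 466.2 and 660.1 CPM (cKO 1, 2), and Cct6a at 724.7 and 691.7 CPM (Control 1, 2) against 362.3 and 571.1 CPM (cKO 1, 2). In TPM, Cct5 stayed lower, at 623.9 and 610.4 (cKO 1, 2) against 754.2 and 743.3 (Control 1, 2). Cct6a overlapped in TPM, at 654.9 and 395.0 (cKO 1, 2) against 537.2 and 526.2 (Control 1, 2). In limma on log2(TPM + 1) 13 of 14 genes were negative, with a median of -0.24. In CPM, the list's median log2 difference from the Control mean was -0.73 in cKO 1, against -0.07 in cKO 2. Without cKO 1 its median was -0.11. Of 8 mitochondrial chaperones 0 passed, 0 had an unadjusted p under 0.05 and 7 were negative (median -0.26). Hspd1, the mitochondrial chaperonin, measured 692.2 and 659.7 CPM (Control 1, 2) against 393.6 and 599.1 CPM (cKO 1, 2), and Hspa9, the mitochondrial HSP70, had a log2 fold change of -0.65. The median of the mitochondrial list in CPM was -0.62 in cKO 1 and -0.01 in cKO 2.

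In CPM, with a TMM factor of 1.27 in cKO 1 against 0.876 in cKO 2, abundant genes lay lower in the cKO 1 library. Over the 5780 genes whose mean CPM was at least 20, its median log2 difference from the Control mean was -0.41, against 0.10 in cKO 2. Over all genes tested the medians were 0.06 and -0.02. These library medians were computed in this scaling only, and a shift of abundant against low genes can fall on either side with another. The 10 heat shock genes stood at -0.05 in cKO 1 and 0.45 in cKO 2, above the median of the abundant genes in both libraries. Immediate early genes, which dissociation also induces, had a median log2 difference of 0.08 in cKO 1 and 0.16 in cKO 2. Of 20 of them 0 passed in edgeR, 12 were positive (10 with DESeq2 size factors and 16 with library totals) and 2 had an unadjusted p under 0.05 (Egr2, lower, and Nr4a1, higher, named after their values were seen). Their summed level was 11206 and 13560 CPM (Control 1, 2) versus 11499 and 13330 CPM (cKO 1, 2). Egr1 had a log2 fold change of -0.05 and Dusp1 one of 0.01.

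**Figure D4:**
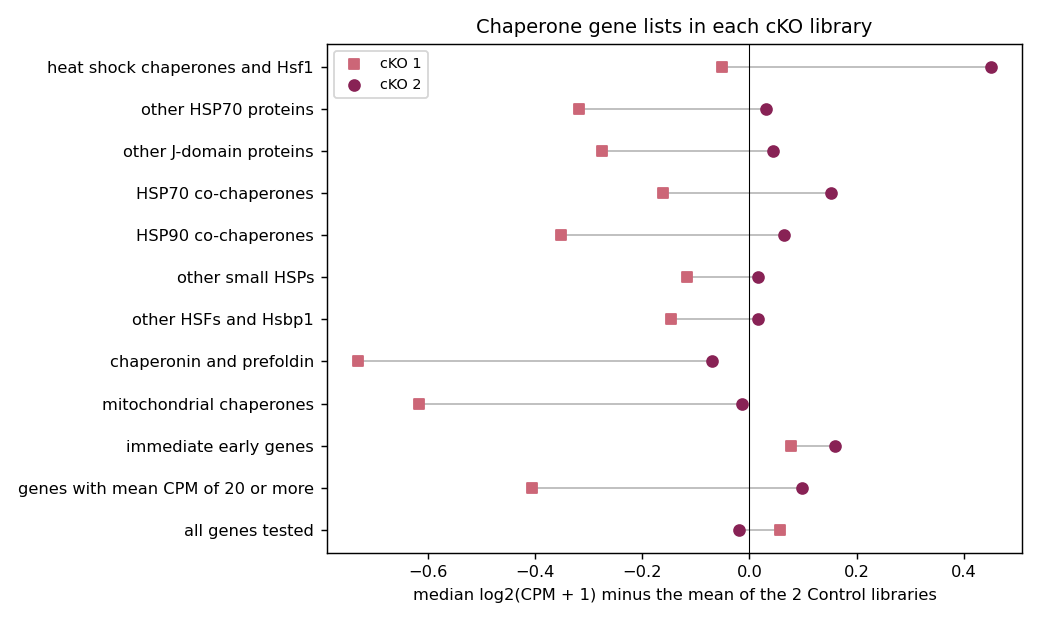
Median over each gene list of log2(CPM + 1) in cKO 1 (squares) and cKO 2 (circles) minus the mean of the 2 Control libraries. The chaperonin and prefoldin list lies at -0.73 in cKO 1 and -0.07 in cKO 2, the 10 heat shock genes at -0.05 and 0.45, and the genes whose mean CPM was at least 20 at -0.41 and 0.10.

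The mean profile of the 10 genes over the 4 libraries, each gene centred on its own log2 mean, was -0.14, -0.13, -0.09 and 0.36 in Control 1, Control 2, cKO 1 and cKO 2. In TMM-scaled CPM, on which it was computed, the mean profile was nearly flat but for cKO 2. In TPM, the 10 genes held 1.43% and 1.31% (cKO 1, 2) against 1.160% and 1.165% (Control 1, 2), highest in cKO 1. The profile of Hspa1b stood at -0.74, -0.24, 0.45 and 0.53, and that of Hsp90aa1 at 0.20, -0.01, -0.46 and 0.27. Among 5349 other protein-coding genes whose mean CPM was at least 20, those nearest to the mean profile were Ston2, Ank3, Tgfb1i1, Mxra8 and Sf1, with a root mean square difference of 0.00927 to 0.0160 on the log2 scale over 4 libraries. Ston2 measured 63.4 and 64.3 CPM (Control 1, 2) against 66.7 and 90.6 CPM (cKO 1, 2).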

How the data were processed

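RNA-seq of freshly isolated satellite cells was compared between 2 Control and 2 Rbfox2 cKO libraries. Per the labels' protocols, 10 ng RNA went into each SMART-Seq library. HISAT2 2.1.0, StringTie 1.3.6 and GRCm38 are named, with no role, in the submitters' processing notes. No strand setting is stated, so a gene and its antisense partner may share reads. The authors deposited estimated counts per gene, already whole numbers, and TPM, which keeps no depth. Among genes with 1 transcript and over 200 counts, 98.7% to 98.9% of counts lay within 1% of a constant times TPM times length. GENCODE M21 supplied coordinates, and 55394 identifiers matched without the version.

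Counts were fitted in edgeR 4.0.16 (R 4.3.3) with TMM, filterByExpr and the robust quasi-likelihood test, and p-values were adjusted by Benjamini-Hochberg over all genes at a threshold of 0.05. Each SE was taken as the absolute log2 fold change over the root of its F. CPM use TMM-scaled library sizes. The TPM were fitted with limma 3.58.1 on log2(TPM + 1) for a mean TPM of at least 1, a scale that understates changes of low genes. DESeq2 1.42.0, other scalings and filters, and each library left out were alternatives. Shared sequence was counted over 50-mers of the annotated transcripts on both strands. The scripts were tested on simulated data.

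The 10 genes and the gene lists were chosen with earlier results of these data known. All 10 are named, as are the 2 members with the highest mean CPM of each chaperone and immediate early list, since none was called. The 5 genes of like pattern were taken by root mean square difference in TMM-scaled log2 CPM, and no other scaling was tried. Marker lists of endothelial, fibro-adipogenic, mural and glial cells had 0 members called.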

Additional observations from a re-analysis of the deposited data

How the results depend on the processing

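The number of genes called moved with the setting. It was 139 higher and 71 lower in edgeR on 4 libraries, 66 and 53 with DESeq2 size factors, 10 and 4 when 2 libraries had to reach a CPM of 5, 16 and 12 with no filter on low counts, 51 and 35 in DESeq2, 36 and 17 in limma on log2(TPM + 1), 62 and 40 with a pseudocount of 0.1, and 285 and 119 with no TPM filter. Leaving out a library gave 26 to 606 higher and 22 to 2016 lower. Of the 10 heat shock genes 0 were called in edgeR on 4 libraries with TMM, against 0.551% of all genes tested. With library totals only 2 were called, against 0.739%. In limma 2 were called with either pseudocount, against 0.308% with 1 and 0.593% with 0.1. With no TPM filter 4 were called, against 0.742%. The cause of these shifts was not tested.

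With the replicate number as a block 61 genes were higher and 35 lower, and 0 of the 10 were called. The labels do not say that the numbers pair libraries. Same-numbered libraries do share a part of their library code, and what that part marks is not stated. The deviations of same-numbered libraries from their group means had a correlation of -0.19 over 16561 genes. With the numbers crossed, a setting chosen after seeing the data, the counts were 155 and 88.

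Hspa1a, Hspa1b, Dnajb1 and Hspb1 were positive in every setting run, with ranges over the fits with a library left out of 0.45 to 1.02, 0.71 to 1.21, 0.31 to 0.87 and 0.10 to 0.51. Their groups already did not overlap in CPM, and every setting reuses the same libraries, so these signs are not separate support. Leaving out a library gave log2 fold changes of -0.14 to 0.16 for Hspa8, -0.42 to 0.23 for Dnaja1, -0.18 to 0.54 for Hsph1, -0.63 to 0.19 for Hsp90aa1, -0.53 to 0.14 for Hsp90ab1 and -0.11 to 0.40 for Hsf1. Hspa8 was also negative with DESeq2 size factors (-0.020) and in DESeq2 (-0.0083). Dnaja1 was positive when 2 libraries had to reach a CPM of 5 (0.049), with library totals only (0.082) and in limma (0.19 with either pseudocount and with no filter). By CPM per kb of the longest transcript, Dnajb1 came 6, Hsph1 7, Hspa1b 8 and Dnaja1 9 in the order of levels, in place of 7, 6, 9 and 8. What limits these comparisons, among depth, spread and filter, was not tested.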
